A study of Homo sapiens with 6 samples.

Results

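Ribosome biogenesis factors are the proteins that transcribe, modify, cut and fold ribosomal RNA in the nucleolus and assemble it with ribosomal proteins. The 39 genes described here were chosen by name for these roles, not by their values, but with earlier results of these data known. All 39 were found among the 37923 genes of the count table. Each had a single row, and all 39 passed the filter on low counts, as did 18581 genes in all. RNA from cells labelled RKO, a human colorectal carcinoma line, was sequenced in 3 Control and 3 ENZ libraries. By the series design, the ENZ cells received compound A3, a degrader of the histone demethylase LSD1, and RNA was taken 48 h after treatment. The sources used here do not give the dose, what the Control cells received, what ENZ stands for or how the replicates, called biological, were kept apart. The p-values therefore reflect only the scatter among these 6 libraries.

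Ribosome production begins with RNA polymerase I, which transcribes the long precursor of most ribosomal RNAs. Small nucleolar ribonucleoproteins (snoRNPs) of the C/D type methylate this precursor and those of the H/ACA type convert uridines to pseudouridines, while the small-subunit processome and the large-subunit assembly factors cut and fold the rest. In dividing tumour cells these genes are known as targets of MYC, which binds with its partner MAX to the E-box letters CACGTG.

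The libraries held 26691289 to 30025543 counts, and log2 CPM correlated at 0.994 to 0.995 within groups and at 0.985 to 0.989 between them. A chi-square per degree of freedom, which is larger where 2 libraries differ more, was 18.9 to 30.9 between groups. Within groups it was 6.77 for ENZ replicates 1 and 3, 3.64 for ENZ replicates 1 and 2 and 2.48 for ENZ replicates 2 and 3. The Control pairs had 1.99 to 2.89, so only the pairs with ENZ replicate 1 lay above them. Genes of the labelled colorectal origin were few: of 9 such markers measured, 6 averaged below 1 normalised CPM (counts per library total, scaled by the TMM factor, which allows for RNA composition), with CDX1 and KRT20 at or near 0, and 3 were over 10 CPM, EPCAM and VIL1 among them. Of 13 prostate luminal markers 9 were over 10 CPM, with a summed level of 3013 to 3058 CPM in Control and 3287 to 3351 in ENZ, FOLH1 among them. These levels go against the labelled colorectal origin in all 6 libraries, which are called Control and ENZ here as their labels name them. Leukocyte and endothelial markers were all under 1 CPM on average, and the summed fibroblast markers, mostly LUM, had 76.6 to 85.4 CPM in Control and 40.9 to 43.5 in ENZ. Their part in the results below was not tested. KDM1A, the gene of LSD1, differed by -0.02 on the log2 scale (adjusted p = 0.681), but a degrader acts on the protein, so its transcript does not check the treatment.

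Promoter windows from RefSeq (GRCh38.p14), running from 250 bases before to 50 after a transcript start that RefSeq lists for the gene (a gene can have several), were found for 33 of the 39 genes, 40 windows in all. The E-box CACGTG, a palindrome that reads alike on both strands, lay in 15 of these windows (37.5%), against 7.26% of all 35116 windows and 9.26% of those of all genes tested. The ETS core CCGGAAG, searched on both strands, was in 32.5% of the members' windows and in 15.8% of those of all genes tested. A match describes the letters and does not show that a factor binds. Examples are shown as 30 bases on the strand of the gene, with the E-box in capitals, because they carry the same letters at genes whose transcripts went in different directions. The first 5 belong to genes that were lower in ENZ, BYSL and NOP14 to genes that were higher, and NAT10 to a gene that was not called.
UTP4: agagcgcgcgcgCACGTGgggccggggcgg
UTP20: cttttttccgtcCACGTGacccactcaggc
DDX21: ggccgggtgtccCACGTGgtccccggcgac
LYAR: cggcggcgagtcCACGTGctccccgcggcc
GNL3: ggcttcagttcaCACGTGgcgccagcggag
BYSL: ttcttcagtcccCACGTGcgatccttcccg
NOP14: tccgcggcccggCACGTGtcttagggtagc
NAT10: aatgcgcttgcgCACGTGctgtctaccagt

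These stretches lie at chr16:69132621-69132650 on the plus strand for UTP4, chr12:101280083-101280112 (plus) for UTP20, chr10:68956604-68956633 (plus) for DDX21, chr4:4290068-4290097 (minus) for LYAR, chr3:52686026-52686055 (plus) for GNL3, chr6:41921515-41921544 (plus) for BYSL, chr4:2963374-2963403 (minus) for NOP14 and chr11:34105602-34105631 (plus) for NAT10. Relative to the RefSeq start of the window that holds it, which need not be the outer end of the gene in GENCODE, the first base of the E-box stood between -64, at LYAR, and 29, at BYSL. GNL3, DDX21 and LYAR each have another window, which holds no E-box. By gene, an E-box was found at 5 of 10 members that were lower in ENZ and had a window, at 2 of 3 that were higher and at 8 of 20 that were not called. Of all members with a window 45.5% had one, and of all genes tested with a window 12.4%.

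The question was how the transcripts of this machinery differed between the libraries labelled ENZ and Control. In ENZ 12 of the 39 genes fell, 3 rose and 24 did not pass the test (adjusted p under 0.05 in edgeR's quasi-likelihood test over all genes). The background was as high: 39.8% of all genes tested were called, 20.5% higher and 19.3% lower. The 15 calls among 39 (38.5%) are thus a share near that of all genes. By direction, 30.8% of the members were lower and 7.69% higher. Among the 15038 genes at or above the lowest member's mean CPM, 45.8% were called, 24.6% higher and 21.2% lower. The differences of the members were small. The median log2 fold change was -0.03 over the members and -0.01 over all genes tested, the median absolute value was 0.08 over the members and 0.20 over all genes, and the extremes were -0.47 (NOP58) and 0.22 (POLR1C). The 95% confidence interval of the fold change lay within 0.25 of 0 on the log2 scale for 25 members. It did so for 4750 of all 18581 genes tested. No member passed the log2 fold change of 1 that the series design sets as its limit. Past this limit 553 of all genes tested were called. Of the 12 falls, 8 were called under all 18 alternative settings (NCL, UTP4, HEATR1, UTP20, DDX18, GNL3, GNL3L and LYAR), and of the 3 rises none was. The 3 rises became 1 without Control replicate 3 or without ENZ replicate 2.

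**Figure D1:**
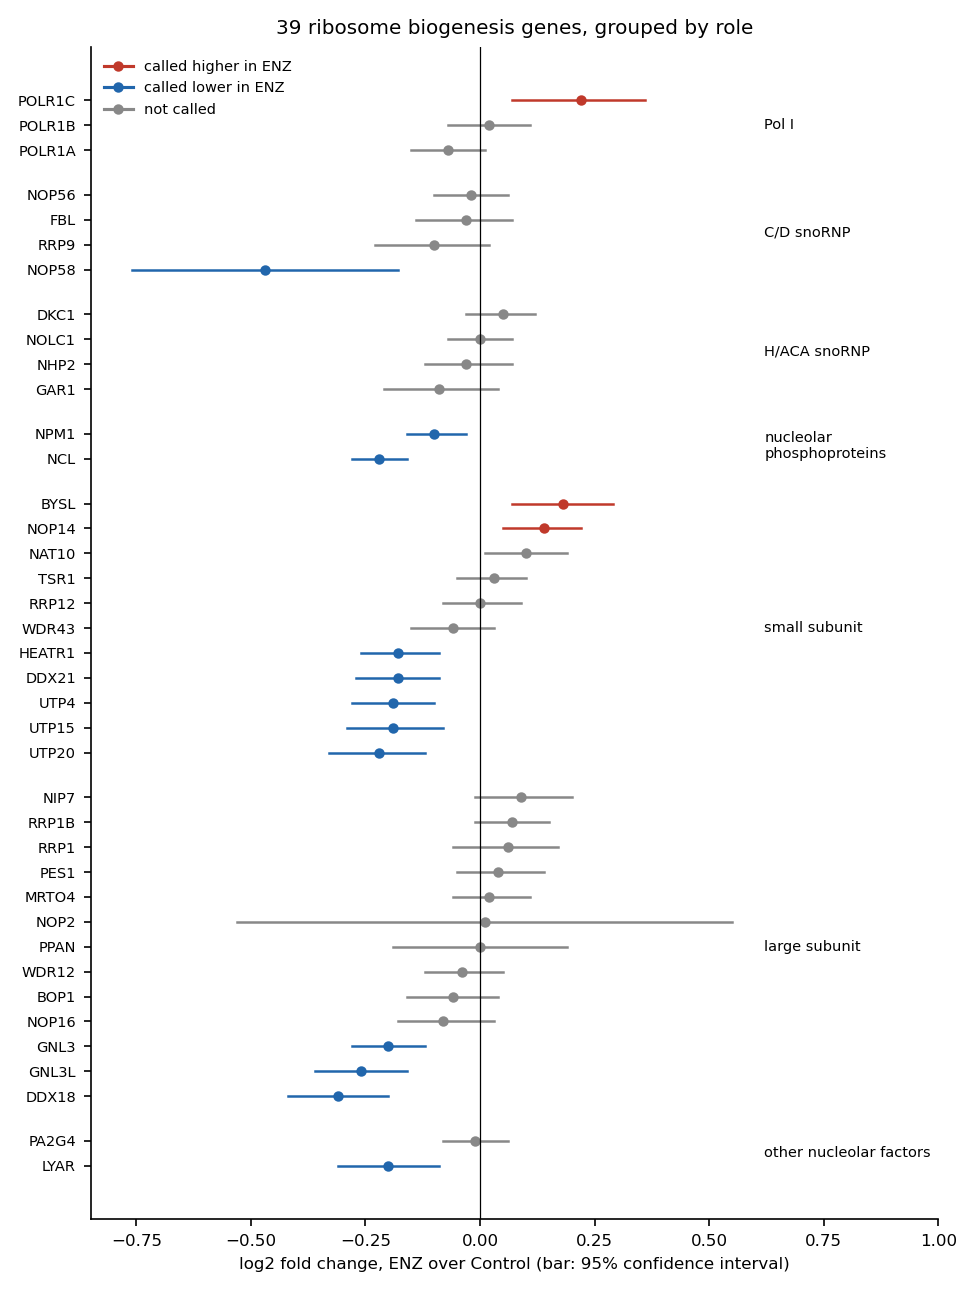
Log2 fold change of ENZ over Control for the 39 genes (points) with 95% confidence intervals (bars), grouped by role on the vertical axis and coloured by call. The 12 genes called lower lie between -0.47 and -0.10, and the 3 called higher between 0.14 and 0.22.

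Summed over the 39 genes, normalised CPM (the scale of all CPM values below) were 7601, 7736 and 7678 in Control replicates 1 to 3 and 7208, 7206 and 7194 in ENZ replicates 1 to 3. The groups did not overlap in this sum. NCL and NPM1 alone held 32.8% of it, and with DDX21 and NOLC1 48.7%, so it follows a few abundant transcripts. Singly, 16 of the 39 genes had groups that did not overlap, 13 with ENZ below and 3 with ENZ above, and this was so for 49.3% of all genes tested.

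Nucleolin (NCL) and nucleophosmin (NPM1) are the abundant nucleolar phosphoproteins that bind ribosomal RNA and its precursors. In Control NCL (chr2:231453531-231483641, GRCh38) had 1378, 1416 and 1389.5 CPM, and in ENZ 1208, 1199 and 1183. All ENZ libraries were below all Control libraries, and NCL fell by 14.2% (log2 fold change -0.22 ± 0.03 SE, adjusted p = 5.93e-06), with the smallest p among the members. NPM1 (chr5:171387116-171411810) had 1172, 1191 and 1183 CPM in Control and 1140.1, 1105 and 1074 in ENZ. Its groups did not overlap either, but NPM1 fell by 6.43% (log2 fold change -0.10 ± 0.03, adjusted p = 0.0211). The NPM1 call ended without any of the 3 Control libraries, without ENZ replicate 2 or without ENZ replicate 3, and it turned into a called rise of 0.08 with offsets for GC content. NPM1 has 49 pseudogenes named after it in GENCODE, the most of any member, so its count is uncertain.

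RNA polymerase I was represented by its largest subunit POLR1A, its second-largest subunit POLR1B and POLR1C, which it shares with RNA polymerase III. POLR1C (chr6:43509702-43562419) had 30.7, 29.5 and 29.1 CPM in Control and 30.5, 35.5 and 37.9 in ENZ. ENZ replicate 1 lay within the Control range and the other 2 above it. POLR1C rose by 16.1% (log2 fold change 0.22 ± 0.07, adjusted p = 0.0176), a call that ended without Control replicate 2, Control replicate 3, ENZ replicate 2 or ENZ replicate 3 and on log2(FPKM) values. The library kit does not mark strand, and the genes LRRC73, YIPF3 and XPO5, which overlap exons of POLR1C on the opposite strand, were also called higher, by 0.39, 0.25 and 0.13 on the log2 scale. Their part in the POLR1C count was not tested. POLR1A had 168.8, 164.1 and 162.0 CPM in Control and 152.9, 156.6 and 161.6 in ENZ, and POLR1B 83.2, 86.3 and 86.6 in Control and 86.1, 88.7 and 85.8 in ENZ. Their intervals ran from -0.15 to 0.01 and from -0.07 to 0.11, and neither gene was called.

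In the C/D snoRNP, FBL (fibrillarin) is the methyltransferase, NOP56 and NOP58 form the paired scaffold, and RRP9 belongs to the snoRNP that guides processing of the small-subunit RNA. NOP58 (chr2:202265736-202303661) had the largest fold change of all members. It had 108.3, 103.4 and 109.1 CPM in Control and 91.7, 74.3 and 66.1 in ENZ. The ENZ libraries were all lower, and they were far more spread than the Control libraries. NOP58 fell by 27.6% (log2 fold change -0.47 ± 0.12, interval -0.76 to -0.18, adjusted p = 0.0234). The call ended without Control replicate 1, without Control replicate 3, without ENZ replicate 2, with GC offsets and on unfiltered log2(FPKM + 1), with values from -0.61 to -0.34 over the alternatives.

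Its partner NOP56 had 253.0, 264.0 and 252.4 CPM in Control and 241.7, 263.5 and 256.4 in ENZ, and FBL 235.1, 239.8 and 223.6 in Control and 210.5, 226.4 and 247.3 in ENZ. Both overlapped between groups, with intervals of -0.10 to 0.06 and -0.14 to 0.07. On the FPKM scale, which divides by gene length, the ratio of NOP58 to NOP56 was 0.647, 0.593 and 0.654 in Control and 0.574, 0.427 and 0.390 in ENZ. This ratio does not depend on the library total. Its log2 difference was -0.46, and the exact two-sided permutation test gave p = 0.10, the smallest that 3 against 3 allows. For NOP58 to FBL the difference was -0.45 (exact permutation p = 0.20), and adjusted over these 2 ratios both permutation p-values were 0.20. These ratios were taken for the member with the largest fold change. With 3 against 3 libraries such a test cannot fall under 0.05, so no conclusion is drawn from it. RRP9 had 59.0, 61.1 and 57.6 CPM in Control and 50, 54.7 and 60.6 in ENZ, the largest absolute fold change among the genes that were not called (-0.10, adjusted p = 0.172), and it was called lower without ENZ replicate 3 (-0.18).

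The H/ACA snoRNP holds the pseudouridine synthase dyskerin (DKC1) with GAR1 and NHP2, and NOLC1 is a chaperone of both kinds of snoRNP. None of these 4 genes was called by edgeR, DESeq2 or limma-voom, and 0 had an unadjusted p under 0.05 in edgeR. DKC1 had 177.1, 183.7 and 182.4 CPM in Control and 181.0, 188.1 and 191.9 in ENZ, which differ by 0.05 on the log2 scale (interval -0.03 to 0.12). NOLC1, with 533.2, 556.1 and 550.6 CPM in Control and 535.9, 552.9 and 554.1 in ENZ, had the narrowest interval around 0 of the uncalled members, -0.07 to 0.07. GAR1 and NHP2 overlapped between groups, with intervals of -0.21 to 0.04 and -0.12 to 0.07. GAR1 was called lower without ENZ replicate 3 (-0.16), and NHP2 lower with GC offsets (-0.08).

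Among the 11 small-subunit factors 5 fell, 2 rose and 4 did not pass the test. UTP4, UTP15, WDR43 and HEATR1 belong to the subcomplex that joins the nascent precursor and is tied to its transcription. UTP4 (chr16:69131291-69231130) had 113.2, 113.1 and 115.5 CPM in Control and 96.6, 99.8 and 103.4 in ENZ, and fell by 12.3% (log2 fold change -0.19 ± 0.04, adjusted p = 9.64e-04). HEATR1 (chr1:236549005-236604516) had 133.5, 130.3 and 135.1 CPM in Control and 121.7, 114.2 and 117.3 in ENZ, and fell by 11.5% (-0.18 ± 0.04, adjusted p = 0.00148). In both genes the groups were apart. HEATR1 shares 2095 exonic bases with LGALS8 on the opposite strand, which also fell, by 0.16 on the log2 scale, and the reads of these strands cannot be separated.

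UTP15 (chr5:73565443-73583380) had 65.6, 63.6 and 69.6 CPM in Control and 59.7, 56.3 and 58.6 in ENZ. It fell by 12.2% (-0.19 ± 0.05, adjusted p = 0.00436), but with GC offsets the value was -0.03 and the call ended, as it did without Control replicate 3. WDR43, the fourth gene of the subcomplex, had 137.7, 134.5 and 136.0 CPM in Control and 140.4, 125.8 and 125.5 in ENZ. ENZ replicate 1 was the highest of all 6 libraries for WDR43 and the other ENZ libraries were the lowest, and without ENZ replicate 1 the gene was called lower (-0.11).

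UTP20, a large scaffold protein of the processome, and DDX21, an RNA helicase that acts in transcription and processing of ribosomal RNA, also fell. UTP20 (chr12:101280105-101386618) had 57.0, 54.5 and 60.3 CPM in Control and 50, 48.6 and 48.8 in ENZ (-0.22 ± 0.05, adjusted p = 0.0015). DDX21 (chr10:68956135-68985068) had 680.2, 669.1 and 681.4 CPM in Control and 648.6, 586.5 and 556.4 in ENZ (-0.18 ± 0.04, adjusted p = 0.00368). The groups did not overlap in either gene, and in DDX21 the ENZ libraries were spread more widely than the Control libraries. DDX21 lost its call on unfiltered log2(FPKM + 1) only.

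The rises in this role were in BYSL (bystin), which acts in late maturation of the small subunit, and in NOP14, a processome protein. BYSL (chr6:41921499-41933046) had 43.2, 46.3 and 46.3 CPM in Control and 49.3, 52.4 and 52.6 in ENZ, a rise of 13.5% (log2 fold change 0.18 ± 0.05, adjusted p = 0.00785) that ended without Control replicate 1 and on unfiltered log2(FPKM + 1). NOP14 (chr4:2937933-2963406) had 125.9, 126.5 and 118.4 CPM in Control and 131.4, 137.4 and 139.4 in ENZ (0.14 ± 0.04, adjusted p = 0.0112), a call that ended without Control replicate 3, without ENZ replicate 2, with GC offsets and on log2(FPKM) values. Both had every ENZ library above every Control library. NOP14 shares 737 exonic bases with its antisense gene NOP14-AS1, which was also called higher (0.24), and their reads cannot be told apart. Of the rest, the RNA acetyltransferase NAT10 had 114.8, 119.7 and 118.6 CPM in Control and 119.3, 125.6 and 134.1 in ENZ (0.10, adjusted p = 0.0752) and was called higher without ENZ replicate 1 (0.14). TSR1 and RRP12 had intervals of -0.05 to 0.10 and -0.08 to 0.09.

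**Figure D2:**
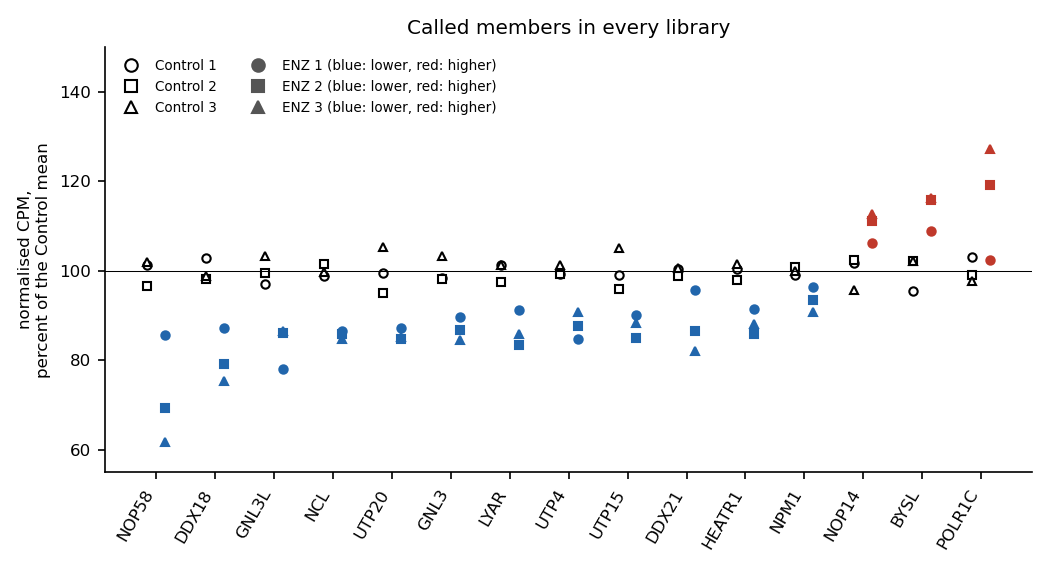
Normalised CPM of the 15 called genes in each library as a percent of the Control mean, with open symbols for Control, filled symbols for ENZ and 1 symbol shape per replicate. ENZ replicate 1 (circles) is the ENZ library nearest to Control in 10 of the 12 genes called lower.

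Among the 13 large-subunit factors 3 fell. None was called higher by edgeR, DESeq2 or limma-voom, and beside the 3 falls 0 had an unadjusted p under 0.05 in edgeR. DDX18, a helicase of early large-subunit assembly (chr2:117814691-117832377), had 91.0, 86.8 and 87.5 CPM in Control and 77.2, 70.1 and 66.6 in ENZ, and fell by 19.3% (log2 fold change -0.31 ± 0.05, adjusted p = 4.94e-05). GNL3 (nucleostemin) and GNL3L are related nucleolar GTPases. GNL3 (chr3:52681156-52694497) had 187.6, 187.4 and 197.2 CPM in Control and 171.1, 165.5 and 161.5 in ENZ (-0.20 ± 0.04, adjusted p = 2.77e-04). GNL3L (chrX:54530183-54621521) had 77.3, 79.3 and 82.4 CPM in Control and 62.3, 68.6 and 69.0 in ENZ (-0.26 ± 0.05, adjusted p = 2.44e-04). In all 3 genes the ENZ libraries were below the Control libraries, and both GTPase genes moved the same way. DDX18 has 5 pseudogenes named after it.

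PES1, BOP1 and WDR12 form the PeBoW complex, which is needed to process the large-subunit RNAs. None of them was called by edgeR, DESeq2 or limma-voom. PES1 had 122.3, 133.5 and 132.4 CPM in Control and 127.7, 136.4 and 136.3 in ENZ, BOP1 95.5, 102.5 and 95.8 in Control and 89.1, 97.1 and 95.8 in ENZ, and WDR12 103.2, 103.0 and 108.1 in Control and 102.6, 100.7 and 103.5 in ENZ. All overlapped, with intervals inside -0.16 to 0.14. With GC offsets BOP1, whose transcript has the highest GC content of the members (65.6%), was called lower (-0.23) and WDR12, at 39.9% GC, was called higher (0.10).

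The other large-subunit genes stayed close to the Control level. NIP7 had 63.6, 64.3 and 61.7 CPM in Control and 65.8, 64.1 and 72.5 in ENZ (0.09, adjusted p = 0.152), and COG8, which shares 873 exonic bases with it on the opposite strand, was called higher (0.34). RRP1B had every ENZ library above every Control library, at 126.3, 128.2 and 129.9 against 121.7, 122.1 and 123.2 CPM, without a call (0.07, adjusted p = 0.182), and its relative RRP1 overlapped between groups. MRTO4, NOP16 and PPAN had log2 fold changes of 0.02, -0.08 and -0.00. NOP2, a methyltransferase of the large-subunit RNA, was counted at only 0.838, 1.17 and 1.33 CPM in Control and 1.27, 1.25 and 0.832 in ENZ, the lowest of the members. Its interval of -0.53 to 0.55 is the widest, and a difference inside it was not detectable at these counts. NOP2 shares 2550 exonic bases with a gene on the same strand (ENSG00000285238) that had 0 counts in all libraries. PPAN, the next lowest at 10.2 to 12.3 CPM over the 6 libraries, shares 1374 exonic bases with the readthrough gene PPAN-P2RY11, which did not exceed 0.0730 CPM. The sources used here do not say how reads shared by such genes were counted, so the levels of NOP2 and PPAN are uncertain.

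The last 2 members bind RNA or growth signals in the nucleolus. LYAR (chr4:4267701-4290154), a zinc-finger protein of ribosomal RNA processing, had 50.2, 48.3 and 50.2 CPM in Control and 45.2, 41.4 and 42.6 in ENZ, and fell by 13.0% (-0.20 ± 0.05, adjusted p = 0.00391) with no overlap of the groups. PA2G4 (EBP1), an RNA-binding growth regulator, had 350.0, 357.0 and 351.0 CPM in Control and 342.8, 356.0 and 354.2 in ENZ. Its interval of -0.08 to 0.06 was the second narrowest around 0 among the uncalled members.

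Per unit of gene length the members spanned 0.238 to 145.4 mean FPKM, with a median of 22.8. In Control the order was led by NCL (158.2 ± 1.58 FPKM, SD, n = 3), NPM1 (144.0 ± 0.631), NOLC1 (139.4 ± 2.58), FBL (110.2 ± 3.76) and PA2G4 (99.7 ± 0.692). In ENZ NCL had 132.6 ± 2.32 FPKM, NPM1 131.5 ± 4.84 and NOLC1 136.3 ± 1.67, so these 3 neighbours, whose libraries did not overlap in Control, overlapped in ENZ. Proteins that sit in the same particle had unequal transcript levels. In Control FBL was at 110.2, NOP56 at 52.4 and NOP58 at 33.1 FPKM, NHP2 was at 73.0, GAR1 at 21.8 and DKC1 at 19.9 FPKM, and PES1 was at 28.9, BOP1 at 25.8 and WDR12 at 11 FPKM. The deposited FPKM uses 1 length per gene, which for DKC1 was 9198 and for WDR12 9619 bases, so the order of genes on this scale depends on those lengths.

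Beside these calls, fold changes followed the GC content of the transcript, in the members and in all genes. Spearman's rho between the log2 fold change and the GC content of the longest GENCODE transcript was 0.53 across the 39 members and 0.34 across 18538 genes tested, a description over genes that share the same 6 libraries. The 12 members that fell had 37.9% to 46.3% GC, and the 3 that rose 45.6% to 56.7%. Of 20 members with over 40% and up to 50% GC, 10 fell and 1 rose, where 21.0% of all genes in this band fell and 17.0% rose. In the band above it, up to 60%, 0 of 13 fell and 2 rose, where 10.9% of all genes fell and 26.5% rose.

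When each library was given offsets for GC content and length, 15 members were called lower and 4 higher. In the same fit, of all 18538 genes tested, 3651 were called lower and 4117 higher. The members' median was -0.06 beside 0.00 for all genes. The rank correlation with GC content was then -0.14 across the members and -0.02 across all genes. Of the 12 falls, 9 were also called lower with offsets, among them NCL (-0.16), DDX18 (-0.20), GNL3L (-0.24) and UTP4 (-0.20). The rest of these 9 had smaller falls with offsets than without. They were UTP20 (-0.14 from -0.22), LYAR (-0.12 from -0.20), DDX21 (-0.10 from -0.18), GNL3 (-0.09 from -0.20) and HEATR1 (-0.08 from -0.18). HEATR1 and LYAR were then near the threshold (edgeR adjusted p = 0.044 and 0.0306). NOP58 (-0.34) and UTP15 (-0.03) lost their call and NPM1 reversed. Another 6 genes were called lower only with offsets, BOP1 (-0.23), RRP9 (-0.21), POLR1A (-0.11), RRP12 (-0.11), FBL (-0.09) and NHP2 (-0.08). Which of these genes count as lower thus differed with the treatment of GC content, and what produced the GC trend was not tested.

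**Figure D3:**
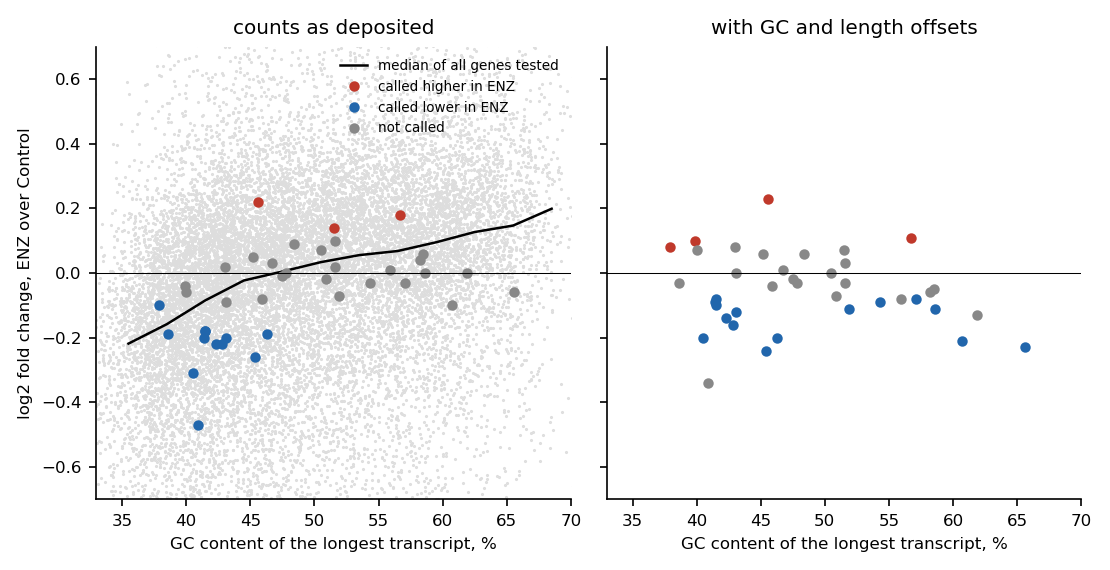
Log2 fold change of ENZ over Control (vertical axes) against GC content of the longest transcript in percent (horizontal axes), for the counts as deposited (left) and with GC and length offsets (right). Large points are the 39 genes, coloured by their call in that fit, light points (left only) are all genes tested within the plotted range, and the line is their median in steps of GC content. The rank correlation across the members is 0.53 on the left and -0.14 on the right.

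The rest of the pathway was read from a list of 116 further genes of ribosome production, chosen by role. Of these 26 fell, 13 rose and 77 did not pass the test, with -0.02 as the median on the log2 scale and extremes of -0.50 and 0.33. By role, 4 of 12 polymerase I genes fell and 1 rose, 9 of 47 small-subunit genes fell and 5 rose, 12 of 50 large-subunit genes fell and 5 rose, and 1 of 7 snoRNP genes fell and 2 rose. These shares, too, stand beside 19.3% lower and 20.5% higher among all genes tested.

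The largest fall was in TAF1A, a subunit of the selectivity factor that places polymerase I on its promoter, with 16.8, 15.3 and 16.8 CPM in Control and 11.9, 11.4 and 11.2 in ENZ (log2 fold change -0.50 ± 0.08, adjusted p = 2.67e-05). Next came the processome gene ESF1 (-0.44 ± 0.08) and the large-subunit genes CEBPZ (-0.42 ± 0.12, adjusted p = 0.0359), NOL12 (-0.42 ± 0.14, adjusted p = 0.0254) and NOL8 (-0.41 ± 0.08, adjusted p = 6.90e-04). CEBPZ lost its call without Control replicate 1 or 3 or without ENZ replicate 2 or 3, with GC offsets (-0.27) and on unfiltered log2(FPKM + 1). NOL12 lost it without any of the 3 Control libraries, without ENZ replicate 1 or 3, in DESeq2, with no filter on low counts and on unfiltered log2(FPKM + 1). Within the polymerase I genes TTF1, a terminator of its transcription, and RRN3, its initiation factor, fell by 0.32 and 0.15, while the polymerase subunit gene POLR1D, shared like POLR1C with polymerase III, rose by 0.18. RRN3 lost its call with GC offsets (-0.05) and without Control replicate 1, ENZ replicate 2 or ENZ replicate 3, and POLR1D without Control replicate 1 or ENZ replicate 2 and on log2(FPKM) values.

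The largest rise was in EFL1, a GTPase of the last step of large-subunit maturation, with 48.0, 46.0 and 45.9 CPM in Control and 60.3, 57.6 and 58.5 in ENZ (0.33 ± 0.05, adjusted p = 1.22e-05). NOP10, the fourth core protein of the H/ACA snoRNP, rose by 0.32 ± 0.06 (adjusted p = 4.28e-04), from 47.2, 54.9 and 49.4 to 60.7, 59.8 and 68.1 CPM, where its partners DKC1, GAR1 and NHP2 were not called. NOP9, NOB1 and RRP36, all of small-subunit maturation, rose by 0.24, 0.23 and 0.22. EFL1, NOP10, NOP9, NOB1 and RRP36 were called higher with GC offsets as well, and so were TAF1A, ESF1, NOL8, TTF1 and NOL12 called lower.

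**Figure D4:**
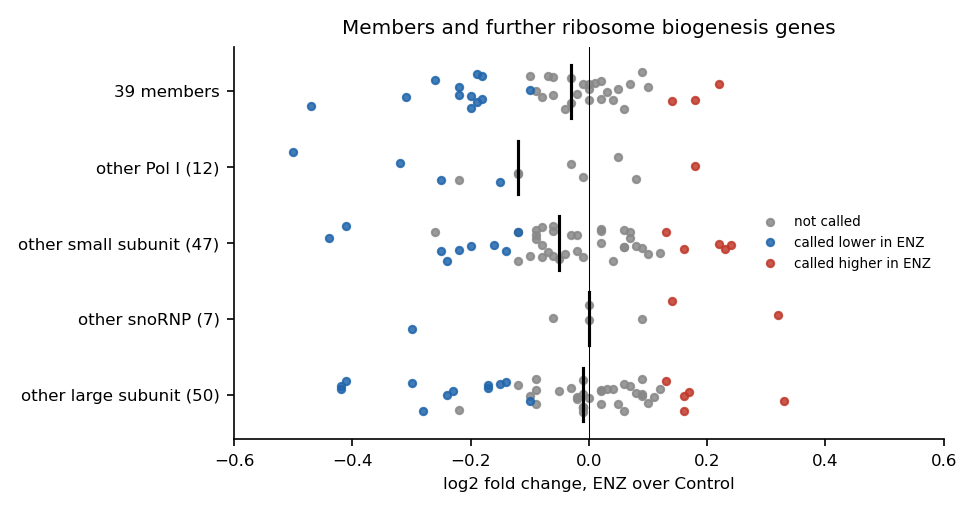
Log2 fold change of ENZ over Control (horizontal axis) for the 39 members and for 116 further ribosome biogenesis genes by role (vertical axis), with 1 point per gene, coloured by call, and a bar at the median. Both directions occur in every row, and no gene passes 0.50 in size.

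Several members also host genes of small nucleolar or Cajal body RNAs. In GENCODE, 9 of the 39 genes enclose 28 such genes on their own strand, GNL3 with 6, NOP56 with 5 and NOP58 with 4. Of these 9 hosts NCL, NOP58 and GNL3 fell, POLR1C rose, and NOP56, DKC1, WDR43, TSR1 and PPAN were not called. The libraries were made from polyadenylated RNA, so the counts are those of the host transcripts and the small RNAs themselves were not analysed here.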

How the data were processed

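Polyadenylated RNA of 6 samples (3 Control, 3 ENZ) was made into libraries with the NEBNext Ultra kit, per the labels' protocols, a kit that does not mark strand. Alignment and counting tools, per the submitters' processing notes, include HTSeq 0.6.1 and HISAT2 2.0.5, with DESeq2 1.20.0 and the build GRCh38. The sources used here do not give the annotation release or counting settings. Both unnormalised counts and FPKM values were deposited by the authors, and the FPKM values equalled the count over 1 length per gene and the library total to within 3.76e-06 percent. Groups came from the sample titles.

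Counts were compared with edgeR 4.0.16 (R 4.3.3): TMM factors, default expression filter, robust quasi-likelihood F test, Benjamini-Hochberg adjustment over 18581 genes, calls at an adjusted p under 0.05. The SE is the absolute log2 fold change over the square root of F. A count of 0 allows 3 counts, or 0.0999 to 0.112 CPM, for counting error alone. Positions are from GENCODE 44 (GRCh38), in which 37817 of 37923 identifiers were found.

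Alternatives were DESeq2 1.42.0, limma-voom (limma 3.58.1), other size factors and filters, limma on log2(FPKM + 1) and log2(FPKM + 0.1), the replicate number as a block, offsets for GC content and length (natural splines, 4 degrees of freedom each) and each library left out. The members, lists and alternatives were chosen with earlier results of these data known. Every called member is given in full, then the uncalled members with the largest fold changes or narrowest intervals, partners in a complex, and the 5 largest rises and falls among further genes.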

Additional observations from a re-analysis of the deposited data

How the results depend on the processing

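Each result was recomputed under 18 alternatives. Among the members the 12 falls stayed between 9 and 17 and the 3 rises between 0 and 5. The rises were 1 on log2(FPKM + 1) and on log2(FPKM + 0.1) with a filter, 0 on unfiltered log2(FPKM + 1), and 5 with GC and length offsets and the replicate block, and ran from 1 to 4 with a library left out. Among the further genes the 13 rises were 7, 7 and 3 on these FPKM values, 20 with GC and length offsets (20 with the block too), and 8 to 23 with a library left out, and the 26 falls were 16 on unfiltered log2(FPKM + 1) and 17 to 33 with a library left out. Over all genes the rises were 2528, 2508 and 1904 on the FPKM values, and the falls 2206 on the unfiltered ones. Under GC and length offsets, without and with the block, fold changes of members turned in sign with a call for NPM1 (0.08 in both), RRP12 (-0.11 in both) and WDR12 (0.10 in both). Among further genes that had been called, the sign turned without a call for DCAF13 (0.04 in both), TMA16 (0.00 and 0.01) and PAK1IP1 (0.02 in both). Among those not called before, it turned with a call under the offsets without the block for RSL24D1 (0.23), NIFK (0.17), TAF1B (0.16), RRP15 (0.14), WDR36 (0.11), NOC2L (-0.09) and RUVBL2 (from 0.00 to -0.12). The cause of these changes was not tested. The unfiltered values test more genes, and a fit without a library has fewer samples. Without ENZ replicate 1 the calls over all genes grew, to 4264 higher and 3994 lower from 3814 and 3579 with all 6 libraries. Without any other single library both counts were smaller. With the replicate number as a block 12 members fell and 3 rose. Samples with the same number did not deviate together (r = 0.02, -0.01 and -0.05, against -0.06 to 0.08 for samples with different numbers). These values show no pairing by number, but cannot exclude 1 that touches few genes. Scaling to library totals alone gave 43.0% of all calls as higher, against 51.6% with TMM factors, with 13 falls and 3 rises among the members. NOP2, with its low and uncertain count, had the widest 95% interval of the members, with a half-width of 0.54. The median half-width was 0.09.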
